A study of Homo sapiens with 18 samples.

Results

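The genes described here are those whose response to forced HER2 pairing was tested for a difference between wild-type (WT) and JNK-knockout (JNKKO) mammary acini. For each gene, the change from control to dimerizer in WT was subtracted from the same change in JNKKO, and this difference of differences, the interaction, was tested in a model with 1 mean per group. A value above 0 on the log2 scale means that the response in JNKKO lay above the response in WT. Of 42141 genes in the tables, 16911 had enough counts to be tested, and 7200 of these (42.6%) had an interaction at an adjusted p under 0.05, which is called a called interaction below. The called genes were then sorted by the shape of their 4 group means.

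MCF-10A.B2 is a human non-tumour mammary epithelial line with an engineered, drug-pairable HER2, and its cells form hollow spheres, or acini, when grown in basement membrane gel. The 12 libraries of the contrast came from acini kept for 21 days, of which the last 14, after 7 days of growth, were with treatment and without EGF. WT control and JNKKO control received ethanol, and WT dimerizer and JNKKO dimerizer received B/B homodimerizer, a bivalent drug that joins the engineered receptors, with 3 libraries in each group. The other 6 of the 18 libraries had dimerizer and TGF-β1 in both genotypes. They entered only the choice of genes to test, the scaling of libraries and the estimate of the spread. The labels leave unnamed which JNK genes were edited and whether JNKKO is 1 clone. Nothing in the labels states that replicate libraries were grown separately, and the p-values therefore reflect the spread among these libraries alone, part of which may be technical.

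JNK kinases are stress-activated MAP kinases that phosphorylate JUN and other AP-1 proteins, the leucine-zipper factors that bind short palindromic sites in DNA. In mammary acini the pathway is known for its part in cell death, polarity and the response to growth factor signals. HER2 lacks a ligand of its own and signals through the ERK and AKT pathways when paired, and in acini its activation is known to restart division and to disturb the ordered layer of cells.

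Levels are given in CPM, counts relative to the scaled total of their library, and are not corrected for gene length, so they compare libraries and not genes. Totals ran from 24243537 to 34499651 expected counts, and the smallest Pearson r among replicates was 0.990 on the log2 CPM scale. WT control stood apart in its share of counts from the 13 protein-coding mitochondrial genes, at 13.01% to 13.14%, against 9.11% to 9.30% in JNKKO control, 7.32% to 7.53% in WT dimerizer and 7.32% to 7.57% in JNKKO dimerizer. A property of the WT control cultures therefore cannot be told apart from an interaction. With the mitochondrial genes left out of counts and totals, 7147 of the 7200 calls (99.3%) were kept. This checks the scaling of libraries only, and not whether the WT control cultures differed in other ways. The 8 mammary epithelial markers were present in all 12 libraries, with a summed level of 8777 to 10687 CPM. In bulk RNA, fewer cells of a type and less RNA per cell cannot be told apart.

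As a check of the labels, the JNK genes were examined first. MAPK9, which encodes JNK2, stood at 62.98, 62.9 and 59.3 CPM in WT control against 57.1, 59.4 and 61.4 with dimerizer, and 45.4, 42.1 and 44.6 CPM in JNKKO control against 44.5, 42.7 and 44.3 with dimerizer. It was lower in all 6 JNKKO libraries, and its interaction was 0.05 ± 0.06 (edgeR adjusted p = 0.558). MAPK8, which encodes JNK1, was at 25.3, 22.8 and 24.6 CPM in WT control against 28.6, 31.1 and 29.6 with dimerizer, and 34.9, 33.5 and 31.99 CPM in JNKKO control against 29.9, 29.3 and 28.9 with dimerizer. Its WT dimerizer libraries lay above WT control and its JNKKO dimerizer libraries below JNKKO control, with an interaction of -0.49 ± 0.08. MAPK10, which encodes JNK3, fell in WT from 10.5, 10.04 and 8.999 to 4.85, 4.67 and 5.59 CPM and was at 6.30, 7.31 and 7.51 and 7.47, 7.34 and 6.15 CPM in JNKKO, with overlapping JNKKO groups and an interaction of 0.95 ± 0.15. Messenger RNA levels do not show which protein was lost. The receptor genes ERBB2 and NGFR, whose counts may include the engineered receptor, had interactions of 0.07 ± 0.06, not called, and 0.70 ± 0.13, called.

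The interaction was as often above as below 0 among all called genes, with 3611 above (21.4% of genes tested) and 3589 below (21.2%). Among the 1547 genes with an interaction of at least 2-fold (9.15%), more lay below, 955 (5.65%) against 592 (3.5%). The median size was 0.47 on the log2 scale over called genes and 0.30 over all genes tested. The even split depends on the scale: limma on log2(TPM + 1) called 2078 above and 4886 below, and on log2(TPM + 0.1) it called 2030 above and 4906 below. On these TPM scales the median of all genes lay at -0.09 and -0.13, against 0.01 on the count scale, so a value near 0 has no fixed sign.

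Each called gene was placed in the first that applied of 6 shapes, in the order given here. Opposite means that the dimerizer moved the gene in both genotypes with opposite signs, and 1391 genes did so (8.23% of genes tested). Changed starting level means that the genotypes differed in control and no difference was called with dimerizer. This held for 2708 called genes, of which 251 were already opposite and 2457 (14.5%) took this shape. Of the genes left, lost means that a change was called in WT and none in JNKKO (1385 genes, 8.19%), and gained means the reverse (1027 genes, 6.07%). A further 1646 and 235 genes with a change in WT alone or JNKKO alone had been placed under changed starting level. The remaining genes moved in the same direction in both genotypes by unequal amounts (795 genes, 4.7%) or had no call in either (145 genes, 0.857%). These names describe calls at a threshold, and a missing call does not show that a gene did not change.

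**Figure D1:**
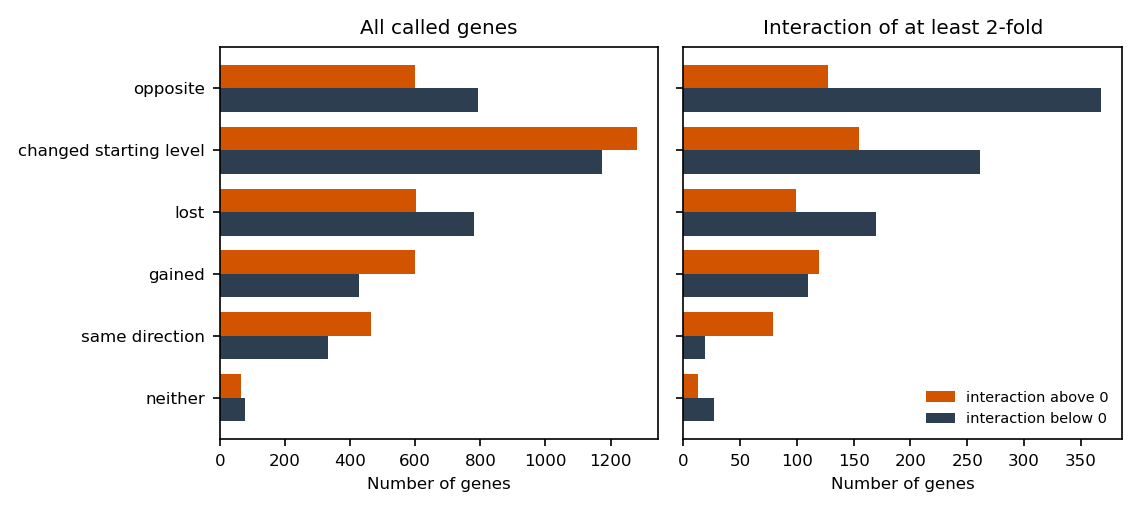
Number of genes in each shape, split by the sign of the interaction, over all 7200 called genes (left) and the 1547 with at least 2-fold interactions (right). Changed starting level was the most frequent shape of all called genes, and genes moved oppositely with an interaction below 0 were the most frequent among the 2-fold calls, at 368.

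Which group differed from the others was counted for each called gene, as the group whose mean lay farthest from the mean of the other 3, a description added after the data were seen. WT control was that group in 3739 called genes (51.9%), JNKKO dimerizer in 1663 (23.1%), WT dimerizer in 1121 (15.6%) and JNKKO control in 677 (9.40%). Among genes without a called interaction WT control was farthest in 40.3% and JNKKO dimerizer in 30.6%. Of the genes with a changed starting level, WT control was farthest in 2157 (87.8%), and of the gained genes JNKKO dimerizer was farthest in 930 (90.6%). These shares follow in part from how the shapes are defined.

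**Figure D2:**
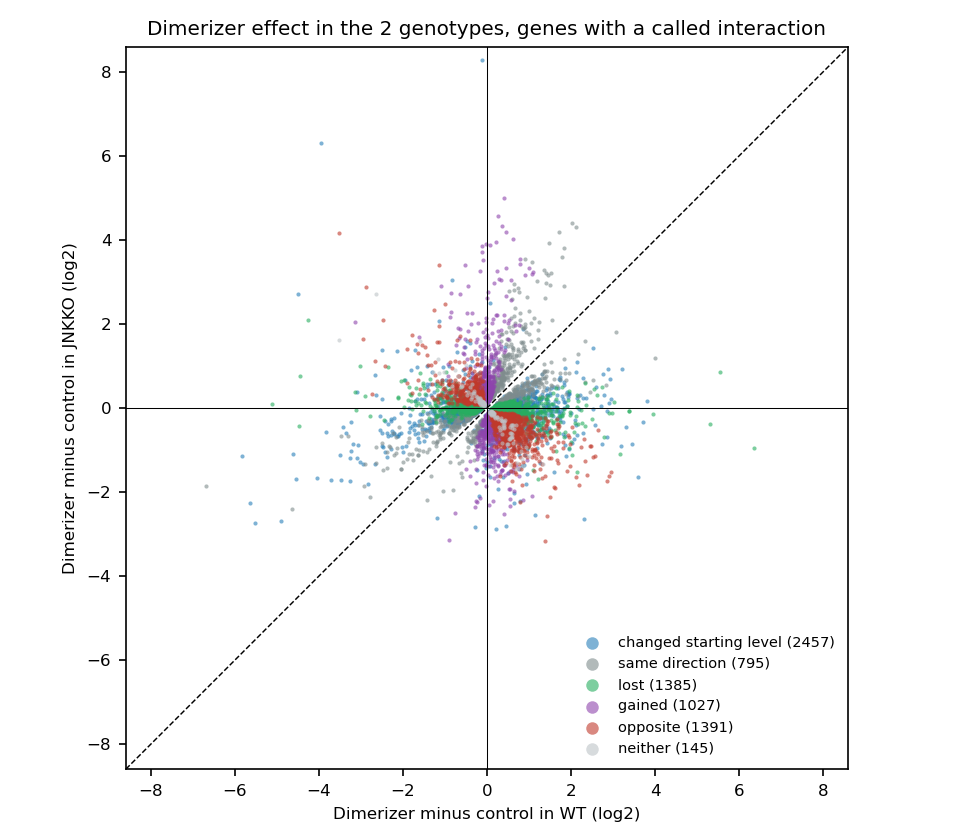
Log2 difference of dimerizer minus control in WT (x axis) and in JNKKO (y axis) for the 7200 genes with a called interaction, coloured by shape, with the dashed line at equal effects. Opposite genes fill the upper left and lower right, lost genes lie along the horizontal axis and gained genes along the vertical axis.

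Genes that moved oppositely (3.54% of genes tested above 0, 4.69% below) included metabolic enzymes and secreted factors. AOX1, an aldehyde oxidase (chr2:200585868-200677064, plus strand, hg38), stood at 12.3, 11.4 and 12.4 CPM in WT control against 1.73, 1.63 and 1.55 with dimerizer, and 2.85, 3.21 and 2.64 CPM in JNKKO control against 23.1, 17.1 and 24.5 with dimerizer. Dimerizer took it down in WT and up in JNKKO with no overlap in either genotype, and its interaction, 5.76 ± 0.20 (edgeR adjusted p = 2.2e-15), was the highest of the opposite genes named by rule. ALDH3B1, an aldehyde dehydrogenase (chr11:68008578-68029282, plus strand), measured 63.9, 62.6 and 66.1 CPM in WT control against 10.6, 9.69 and 8.74 with dimerizer, and 13.4, 14.5 and 13.3 CPM in JNKKO control against 18.96, 14.3 and 19.1 with dimerizer. The JNKKO groups overlapped, and the fall in WT, -2.73 ± 0.08, made up most of its interaction of 3.07 ± 0.12, while the JNKKO change was 0.34 ± 0.09. SPX, which encodes the peptide hormone spexin, had dimerizer effects of -1.27 in WT and 2.32 in JNKKO, and VSTM2L, a secreted immunoglobulin-domain protein, had an interaction of 3.48 ± 0.36. In AOX1 and VSTM2L, JNKKO dimerizer replicate 2 was the lowest of its group, at 17.1 and 23.2 CPM, and still lay above every library of the other groups.

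The reverse order, up in WT and down in JNKKO, was seen in FGF1, a fibroblast growth factor (chr5:142592178-142698070, minus strand), at 0.952, 0.613 and 1.04 CPM in WT control against 6.67, 6.83 and 6.74 with dimerizer, and 6.20, 4.77 and 4.87 CPM in JNKKO control against 2.18, 1.44 and 1.96 with dimerizer. WT control was the lowest group and WT dimerizer the highest, the JNKKO groups lay between them without overlap, and the interaction was -4.47 ± 0.24 (edgeR adjusted p = 1.31e-14). CXCL14, a chemokine on chr5:135570679-135579279, minus strand, had 0.921, 1.55 and 1.68 CPM in WT control against 5.81, 6.07 and 6.18 with dimerizer, and 3.17, 2.86 and 2.84 CPM in JNKKO control against 0.726, 1.21 and 0.837 with dimerizer. Its JNKKO dimerizer libraries overlapped WT control, and its WT and JNKKO effects were 2.12 ± 0.18 and -1.65 ± 0.21. BBOX1, the last enzyme of carnitine synthesis, had effects of 2.58 and -1.15. SPARCL1, a matrix-associated glycoprotein, was under 1 CPM in all groups but JNKKO control, where it was at 5.85, 5.19 and 3.98 CPM, and its interaction of -4.53 ± 0.50 rests mostly on that group.

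**Figure D3:**
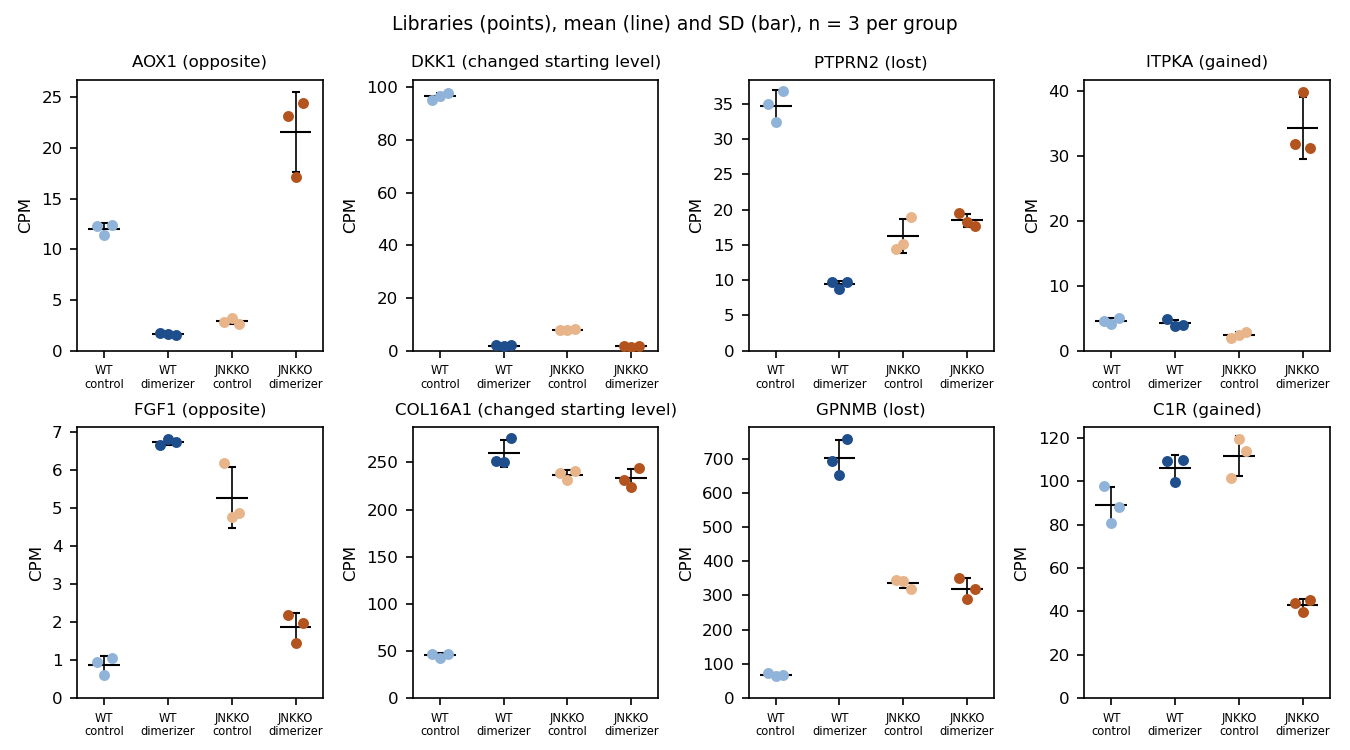
CPM in each of the 12 libraries (points), with the mean (line) and SD (bar, n = 3) of each group, for 2 genes of each of the 4 main shapes. AOX1 and FGF1 cross over between genotypes, DKK1 and COL16A1 have a WT control group that stands apart, PTPRN2 and GPNMB have overlapping JNKKO groups, and ITPKA and C1R have a JNKKO dimerizer group that stands apart.

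A changed starting level was seen in 7.58% of genes tested with an interaction above 0 and in 6.95% below 0. DKK1, a secreted antagonist of Wnt signalling (chr10:52314296-52318042, plus strand), stood at 95.2, 96.8 and 97.8 CPM in WT control against 1.99, 1.84 and 1.97 with dimerizer, and 7.71, 7.80 and 8.20 CPM in JNKKO control against 1.84, 1.44 and 1.71 with dimerizer. Both dimerizer groups were near 2 CPM while WT control lay far above JNKKO control, and the interaction was 3.38 ± 0.24 (edgeR adjusted p = 2.06e-10). COL16A1, a fibril-associated collagen (chr1:31652247-31704319, minus strand), showed the mirror image at 46.7, 42.2 and 46.3 CPM in WT control against 252, 251 and 276 with dimerizer, and 239, 232 and 241 CPM in JNKKO control against 231, 224 and 244 with dimerizer. WT control was far below the rest, the JNKKO groups overlapped with WT dimerizer just above them, and the interaction was -2.55 ± 0.18. SMAD6, an inhibitor of BMP signalling (chr15:66702228-66782848, plus strand), measured 14.3, 15.3 and 18.8 CPM in WT control against 0.764, 0.758 and 0.562 with dimerizer, and 2.11, 2.65 and 2.22 CPM in JNKKO control against 0.427, 0.575 and 1.09 with dimerizer. It fell in both genotypes to levels that overlapped, from a higher start in WT (JNKKO minus WT in control, -2.79 ± 0.17).

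SAMD11 and CFAP61 had the same form, with WT control at 6.46 ± 1.19 and 10.7 ± 0.864 CPM (SD, n = 3) and all other libraries under 2 CPM. GPR37, an orphan receptor of neural tissue, rose in WT from 1.81, 1.81 and 1.51 to 5.61, 5.92 and 5.76 CPM and was at 6.59, 6.39 and 6.01 and 4.91, 5.08 and 5.47 CPM in JNKKO. SERPINB3, a serpin of squamous epithelium, and CASP14, a caspase of cornifying keratinocytes, differed from these in that JNKKO control was the high group. SERPINB3 stood at 7.54, 6.50 and 4.98 CPM there and under 3 CPM in the 9 other libraries. CASP14 was at 6.13, 2.42 and 5.47 CPM in WT control against 5.51, 8.46 and 5.81 with dimerizer, and 17.1, 11.7 and 10.9 CPM in JNKKO control against 4.83, 3.38 and 5.57 with dimerizer. Its WT groups overlapped, and the interaction, -2.04 ± 0.66 (edgeR adjusted p = 0.0245), was no longer called in DESeq2 (-2.02), on log2(TPM + 0.1) (-2.17), or without any 1 of JNKKO control replicate 1 (-1.81), JNKKO dimerizer replicate 2 (-1.84), WT control replicate 2 (-1.73) or WT dimerizer replicate 2 (-1.82).

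Among the 2457 genes of this shape, the dimerizer effect was called in WT alone for 1646, in JNKKO alone for 235, in both with the same sign for 494 and in neither for 82. The WT effect was the larger of the 2 in 2157 genes. That equals the count with WT control farthest, and both follow largely from a class with no called difference with dimerizer. It is therefore not a separate result. Most genes of this shape would count as lost if that shape were assigned first, since the order of assignment sets which name such genes get.

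Lost genes (3.57% of genes tested above 0, 4.62% below) changed with dimerizer in WT and had no called change in JNKKO. PTPRN2, a receptor phosphatase-like protein of secretory granules (chr7:157539056-158587788, minus strand), stood at 34.9, 32.4 and 36.8 CPM in WT control against 9.66, 8.75 and 9.75 with dimerizer, and 14.5, 15.2 and 18.9 CPM in JNKKO control against 19.5, 18.3 and 17.7 with dimerizer. The JNKKO groups overlapped and lay between the WT groups, with an interaction of 2.08 ± 0.12 (edgeR adjusted p = 1.34e-13). GPNMB, a glycoprotein of lysosomes and melanosomes (chr7:23235967-23275108, plus strand), measured 72.03, 62.9 and 68.3 CPM in WT control against 692, 653 and 757 with dimerizer, and 344, 343 and 319 CPM in JNKKO control against 351, 290.3 and 318 with dimerizer. It rose by 3.37 on the log2 scale in WT, and its interaction was -3.44 ± 0.39. CLDN1, a claudin of tight junctions (chr3:190305701-190322475, minus strand), followed the same order at 16.2, 12.5 and 13.4 CPM in WT control against 104, 103 and 111 with dimerizer, and 58.5, 53.6 and 51.3 CPM in JNKKO control against 48.01, 55.4 and 48.05 with dimerizer. WT dimerizer was highest, WT control lowest, and the JNKKO groups overlapped between them, with an interaction of -3.02 ± 0.25.

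The intermediate position of both JNKKO groups was shared by MSLN, CSAR2, APOE and BLNK. MSLN, the cell surface protein mesothelin, fell in WT from 353 ± 29.7 to 64.5 ± 2.02 CPM and was at 143 ± 5.05 and 118 ± 19.9 CPM in JNKKO (SD, n = 3). CSAR2, a name in the tables whose transcripts GENCODE lists as a complement receptor gene, had effects of -3.14 in WT and 0.38 in JNKKO. APOE, the lipid carrier, and BLNK, an adaptor of B cell receptor signalling, had WT effects of 3.03 and 2.12 and JNKKO effects of 0.13 and -0.20. JNKKO control differed from WT control in the direction of the WT dimerizer effect in each lost gene named here, with log2 differences of -1.61 for CSAR2, -1.30 for MSLN and -1.10 for PTPRN2. For GPNMB, CLDN1, APOE and BLNK these were 2.31, 1.96, 2.06 and 1.63. These genes were picked for large interactions, and both differences use the WT control libraries. Of all 1385 lost genes, 594 differed between genotypes in both treatments with opposite signs and 176 in both with the same sign. A further 468 differed with dimerizer only and 147 in neither treatment.

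Gained genes (3.54% of genes tested above 0, 2.53% below) changed with dimerizer in JNKKO and had no called change in WT. ITPKA, a kinase of inositol trisphosphate that also bundles actin (chr15:41493393-41503551, plus strand), stood at 4.51, 4.16 and 4.97 CPM in WT control against 4.85, 3.73 and 4.02 with dimerizer, and 1.90, 2.44 and 2.80 CPM in JNKKO control against 31.9, 39.8 and 31.2 with dimerizer. Every JNKKO dimerizer library lay above every other library by a wide margin, and the interaction was 3.98 ± 0.29 (edgeR adjusted p = 3.4e-08). C10orf10, a gene also known as DEPP1 (chr10:44970981-44978810, minus strand), measured 3.81, 1.87 and 3.63 CPM in WT control against 3.15, 3.33 and 2.75 with dimerizer, and 3.24, 3.60 and 4.56 CPM in JNKKO control against 69.1, 36.7 and 65.5 with dimerizer. JNKKO dimerizer replicate 2 was the lowest of its group and still far above all other libraries, with an interaction of 3.92 ± 0.64. PADI4, which converts arginine to citrulline in proteins (chr1:17308195-17364004, plus strand), measured 0.857, 0.710 and 1.51 CPM in WT control against 1.29, 0.875 and 1.10 with dimerizer, and 0.704, 1.34 and 2.11 CPM in JNKKO control against 25.5, 14.1 and 21.6 with dimerizer, and its interaction was 3.80 ± 0.76. INSC, a homologue of the fly spindle-orientation gene inscuteable (chr11:15112424-15247208, plus strand), was at 24.99, 16.5 and 27.9 CPM in JNKKO dimerizer and at 2.02 CPM or less elsewhere.

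In the other direction, C1R, a protease of the classical complement pathway (chr12:7080199-7092607, minus strand), measured 97.7, 80.9 and 88.2 CPM in WT control against 109, 99.97 and 110.0 with dimerizer, and 102, 119.6 and 114 CPM in JNKKO control against 43.7, 39.9 and 45.2 with dimerizer. JNKKO dimerizer was the low group, no other group overlapped it, and the interaction was -1.64 ± 0.16. NUP210, a nuclear pore membrane protein, was likewise low only there, at 6.49, 5.84 and 7.08 CPM against 11.8 to 21.0 CPM in the 9 other libraries. KRT1, a keratin of differentiating epidermis, and ADGRF1, an adhesion receptor, instead had a high JNKKO control. KRT1 was at 92.3, 68.99 and 67.01 CPM in JNKKO control and 17.7, 10.7 and 16.6 CPM in JNKKO dimerizer, against 7.62 to 11.8 CPM in the WT libraries, and its interaction was -2.08 ± 0.30.

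Because JNK acts on AP-1, promoters were searched for the AP-1 letters TGAGTCA on either strand (TGACTCA on the other), in RefSeq promoters of GRCh38.p14 that run from 250 bases before to 50 bases after the gene start. Of the genes tested, 11406 had a promoter in the table, and 411 of these (3.60%) held the letters, as did 1344 of all 27305 promoters (4.92%). Of gained genes with an interaction above 0, 29 of 448 (6.47%) held them, and of those with at least 2-fold interactions 10 of 72 (13.9%). The corresponding shares of at least 2-fold genes were 8.47% (5 of 59) for lost genes above 0, 8% (12 of 150) for a changed starting level below 0, 6.48% (7 of 108) for lost genes below 0 and 5.75% (5 of 87) for a changed starting level above 0. They were 3.23% (3 of 93) and 3.13% (8 of 256) for opposite genes above and below 0 and 1.27% (1 of 79) for gained genes below 0. For the related site TGACGTCA the shares were 3.08% of genes tested and 1.39% (1 of 72) of the 2-fold gained genes above 0. No test was made, a match is a description and not a bound site, and the class was singled out after its share was seen. The matches of the 7 such genes that reached 5 CPM are printed below to show the site in its setting, on the strand of the gene, with the match in capitals.
PADI4 (chr1:17308132-17308160): accgcaggtgcTGACTCAtggcctctgct
INSC (chr11:15112346-15112374): aagctttgcctTGAGTCAcaggccttctc
ITGA5 (chr12:54419255-54419283): cctccccgcgtTGAGTCAttcgcctctgg
SPHK1 (chr17:76383187-76383215): gagcgcgtcgcTGAGTCAccttcccggaa
ENO2 (chr12:6914475-6914503): ccggcagctccTGACTCAtcgggggctcc
SPRED3 (chr19:38389720-38389748): ccgttgctgggTGACTCAgtgagctttgc
F3 (chr1:94541952-94541980): aatcactggggTGAGTCAtcccttgcagg
The matches in ITGA5 and SPHK1 begin 6 bases before the gene start, those in PADI4, SPRED3, INSC and ENO2 begin 54, 60, 67 and 94 bases before it, and that in F3 begins 210 bases before it. ITGA5, the fibronectin receptor subunit, had JNKKO means of 87.1 ± 4.83 CPM in control and 323 ± 11.2 CPM with dimerizer (SD, n = 3), and WT means of 84.1 ± 6.37 and 82.8 ± 4.11 CPM. SPHK1, which makes sphingosine 1-phosphate, had JNKKO means of 4.57 ± 0.434 and 15.6 ± 0.407 CPM and an interaction of 1.65 ± 0.19. ENO2, a neuronal enolase, SPRED3, an inhibitor of RAS-ERK signalling, and F3, the tissue factor that starts coagulation, had interactions of 1.53 ± 0.43, 1.36 ± 0.24 and 1.25 ± 0.16.

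Genes that moved in the same direction by unequal amounts (2.74% of genes tested above 0, 1.96% below) included pro-survival and pro-death members of the BCL2 family. HRK, a BH3-only activator of apoptosis, stood at 48.6, 44.2 and 46.5 CPM in WT control against 4.55, 3.94 and 4.07 with dimerizer, and 9.26, 8.83 and 10.96 CPM in JNKKO control against 6.45, 5.68 and 6.28 with dimerizer. WT control was far above the other groups, and the fall was called in both genotypes (-3.47 ± 0.09 in WT, -0.66 ± 0.10 in JNKKO). MCL1, which opposes apoptosis, was at 644, 645 and 671 CPM in WT control against 736, 737 and 744 with dimerizer, and 712, 710.0 and 705 CPM in JNKKO control against 1435, 1528 and 1512 with dimerizer. JNKKO dimerizer was about 2-fold above all other groups, with an interaction of 0.90 ± 0.05 (edgeR adjusted p = 1.23e-13). INHBA, a subunit of activin, was at 1.81, 1.90 and 3.73 CPM in WT control against 11.5, 8.52 and 10.1 with dimerizer, and 4.16, 5.05 and 6.17 CPM in JNKKO control against 103, 111 and 111 with dimerizer. It rose in both genotypes, by 2.02 ± 0.29 in WT and 4.41 ± 0.20 in JNKKO. Among the 795 genes of this shape the effect was larger in WT in 447 and in JNKKO in 348.

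Pathway and marker lists were read next, as counts of tested members with a called interaction above or below 0, beside 21.4% above, 21.2% below and a median of 0.01 over all genes tested. Genes of mitosis stood out by their uniform sign, with 23 of 23 members below 0 and a median of -1.28. The shape was opposite in 16 and gained in 7, beside 19.3% and 14.3% of all called genes. Dimerizer raised 16 of the 23 in WT and none fell, where 55.9% of genes tested changed, 30.3% up and 25.6% down. All 23 fell in JNKKO, where 40.4% changed, 22.5% up and 17.9% down. In control, 21 of the 23 were higher in JNKKO than in WT (49.3% of genes tested differed, 25.8% higher and 23.5% lower). With dimerizer all 23 were lower in JNKKO (40.1% differed, 21.6% higher and 18.5% lower).

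CCNB2, the cyclin B2 partner of CDK1, stood at 7.02, 10.1 and 8.53 CPM in WT control against 13.01, 16.04 and 13.9 with dimerizer, and 15.1, 15.2 and 15.2 CPM in JNKKO control against 9.57, 8.81 and 9.53 with dimerizer. The WT groups and the JNKKO groups each did not overlap and moved in opposite directions, with an interaction of -1.46 ± 0.14 (edgeR adjusted p = 9.94e-10). TTK, a spindle checkpoint kinase, was at 4.95, 6.65 and 5.27 CPM in WT control against 7.97, 12.7 and 9.41 with dimerizer, and 10.7, 9.92 and 9.54 CPM in JNKKO control against 6.11, 5.40 and 6.24 with dimerizer, and its interaction was -1.60 ± 0.19. The proliferation marker MKI67 was at 47.3, 74.8 and 57.5 CPM in WT control against 60.96, 78.2 and 62.8 with dimerizer, and 101, 88.6 and 90.5 CPM in JNKKO control against 41.9, 36.7 and 41.3 with dimerizer. Its WT groups overlapped and its JNKKO dimerizer libraries were the lowest of the 12, with an interaction of -1.40 ± 0.20. Other members ranged from -0.70 in FOXM1 to -1.76 in TOP2A.

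Genes of DNA replication followed the same sign at smaller size, with 22 of 23 below 0, none above and a median of -0.68. TYMS, which makes thymidylate, was at 22.6, 25.2 and 23.2 CPM in WT control against 34.1, 35.3 and 34.8 with dimerizer, and 35.2, 33.2 and 33.02 CPM in JNKKO control against 21.996, 19.6 and 22.6 with dimerizer. It rose in WT and fell in JNKKO without overlap within either genotype, and its interaction was -1.22 ± 0.08. PCNA, the sliding clamp, had effects of 0.22 in WT and -0.41 in JNKKO, and MCM2, a subunit of the replicative helicase, had 0.19 and -0.48. CDC45 was the member not called, at -0.42 ± 0.24.

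**Figure D4:**
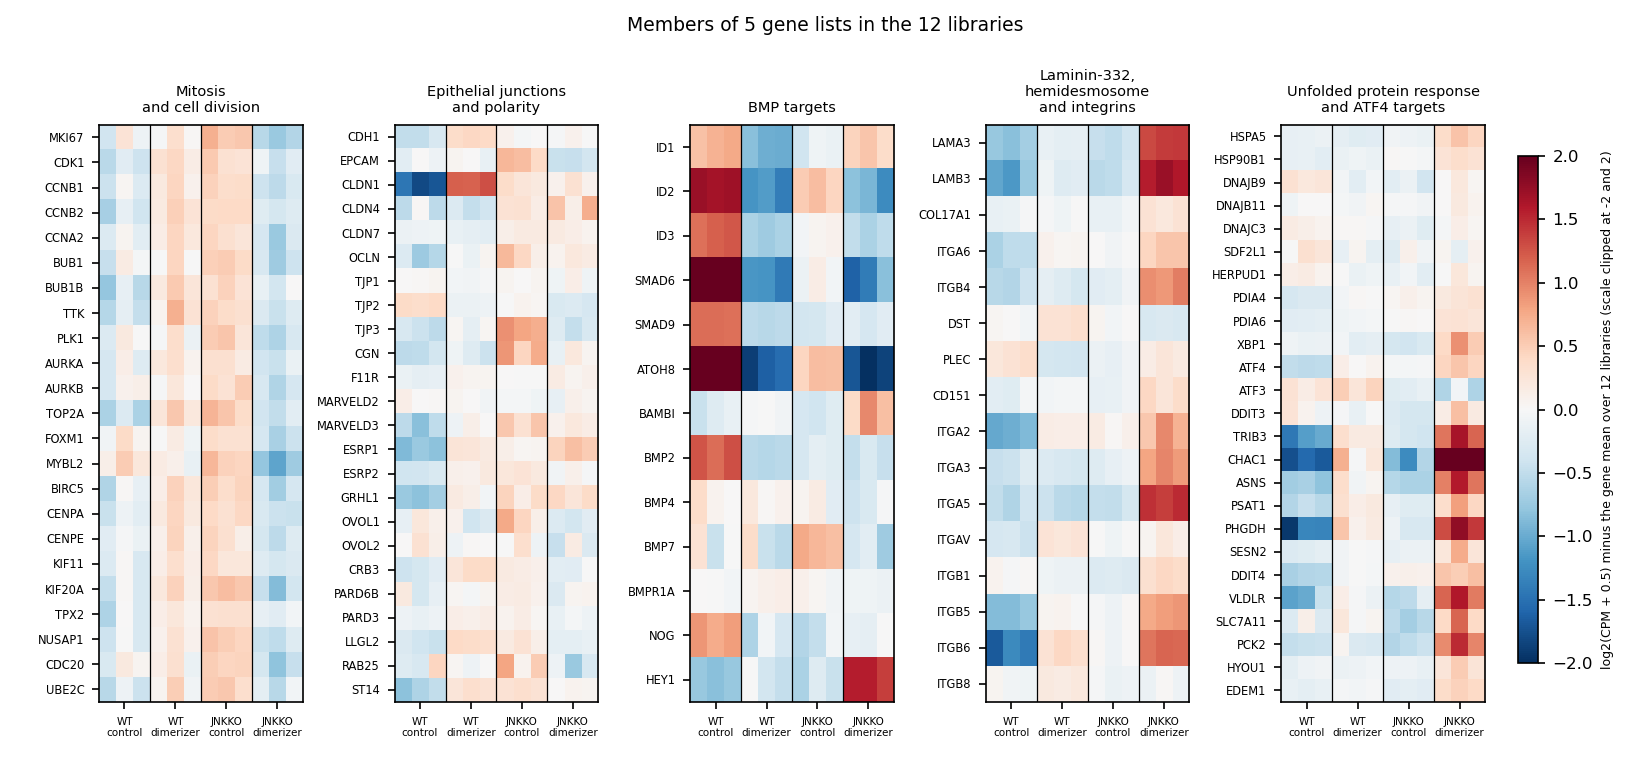
Log2(CPM + 0.5) of each gene minus its mean over the 12 libraries, with 3 columns per group, for members of 5 gene lists. Mitosis genes are lower in JNKKO dimerizer than in JNKKO control or WT dimerizer, several BMP targets are highest in WT control, and LAMA3 and LAMB3 are highest in JNKKO dimerizer.

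Targets and feedback inhibitors of ERK signalling responded to dimerizer in both genotypes. In WT 16 of 20 rose and in JNKKO 19, beside 30.3% and 22.5% of genes tested. The same-direction shape was found in 10 of the 13 called interactions, beside 11.04% of all called genes. Of 20 tested, 7 were above 0, 6 below and the median was -0.08. It was -0.21 on log2(TPM + 0.1) and -0.19 on log2(TPM + 1), -0.04 without JNKKO control replicate 1 and -0.13 without JNKKO control replicate 3 or WT control replicate 3. SPRED1, an inhibitor of RAS-ERK signalling, stood at 16.3, 19.8 and 16.5 CPM in WT control against 49.97, 47.4 and 49.9 with dimerizer, and 44.8, 45.5 and 41.8 CPM in JNKKO control against 58.6, 61.5 and 62.1 with dimerizer. JNKKO control was already close to WT dimerizer, and the rise was 1.49 ± 0.06 in WT against 0.46 ± 0.06 in JNKKO. MYC rose in both genotypes too, by 0.79 and 0.33. SPRY4 and PHLDA1, further feedback genes, rose more in JNKKO (1.95 and 1.63) than in WT (0.63 and 0.53). CCND1, the cyclin of G1, was at 119, 125 and 126 CPM in WT control against 95.8, 94.2 and 90.4 with dimerizer, and 86.03, 88.02 and 90.2 CPM in JNKKO control against 130.4, 110.0 and 136 with dimerizer, and fell in WT and rose in JNKKO with an interaction of 0.91 ± 0.11.

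EGF family ligands and ERBB receptors were split, with 4 of 15 above 0 and 6 below, and a median of -0.10. The median ran from -0.44 without WT dimerizer replicate 3 to 0.01 without WT control replicate 1, and leaving out any 1 of the 12 libraries other than WT dimerizer replicate 2 moved it by over 1.5 times. On log2(TPM + 0.1) it was -0.25 and on log2(TPM + 1) -0.17. On both TPM scales 2 were above 0. LRIG1, a membrane protein that limits ERBB receptor levels, was at 18.9, 18.3 and 17.6 CPM in WT control against 33.2, 35.2 and 34.3 with dimerizer, and 50.1, 42.9 and 47.1 CPM in JNKKO control against 29.8, 31.5 and 30.3 with dimerizer. The groups did not overlap within either genotype, and the interaction was -1.52 ± 0.08 (edgeR adjusted p = 5.95e-15). LRIG3 had effects of 0.54 and -0.20. TGFA and AREG, ligands of EGFR, rose in both genotypes and more in JNKKO, with interactions of 0.84 ± 0.07 and 0.64 ± 0.16. EGFR fell in WT from 877, 862 and 854 to 623, 603 and 621 CPM, and its interaction, 0.39 ± 0.06, was not called on log2(TPM + 1) (0.21) or log2(TPM + 0.1) (0.21).

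AP-1 subunits were mostly above 0, in 9 of 16, with ATF2 below and a median of 0.52, which was 0.31 and 0.30 on log2(TPM + 0.1) and log2(TPM + 1). Below 0 the count was 2 on both TPM scales and without JNKKO dimerizer replicate 2 or 3. JUN, the main JNK substrate of the family, stood at 93.5, 94.3 and 101 CPM in WT control against 82.5, 83.99 and 79.3 with dimerizer, and 60.6, 64.05 and 65.4 CPM in JNKKO control against 98.4, 84.1 and 103 with dimerizer. JNKKO control was the lowest group, the JNKKO dimerizer libraries overlapped WT control and lay just above WT dimerizer, and the interaction was 0.82 ± 0.10 (edgeR adjusted p = 1.96e-06). MAFF, a small MAF protein, was at 54.8, 55.5 and 61.6 CPM in WT control against 29.1, 27.1 and 29.8 with dimerizer, and 34.3, 39.2 and 40.3 CPM in JNKKO control against 45.3, 47.5 and 47.9 with dimerizer, falling in WT and rising in JNKKO with an interaction of 1.31 ± 0.09. MAFK and JUNB had interactions of 0.91 ± 0.08 and 0.85 ± 0.14, both with opposite signs in the 2 genotypes, and JDP2, a repressor of AP-1, fell in WT (-0.95 ± 0.08) with no change called in JNKKO.

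Other components of the JNK pathway showed no common sign, with 6 of 22 above 0, 7 below and a median of 0.05 that was -0.08 on both TPM scales. It was 0.02 with upper-quartile factors, 0.01 without WT control replicate 1, 0.03 without WT dimerizer replicate 1 and 0.08 without JNKKO dimerizer replicate 3 or WT control replicate 3. DUSP1, a phosphatase of JNK and p38, was at 576, 592 and 651 CPM in WT control against 301, 336 and 298 with dimerizer, and 339.9, 382 and 338 CPM in JNKKO control against 387, 422 and 377 with dimerizer. It fell in WT, the JNKKO groups overlapped, and the interaction was 1.12 ± 0.09. MAP3K9, an upstream kinase, rose in JNKKO from 27.01, 28.6 and 28.96 to 49.6, 55.9 and 52.2 CPM and was at 33.2, 35.3 and 36.2 and 32.2, 33.8 and 34.6 CPM in WT. MAP3K12, another upstream kinase, had effects of 0.67 in WT and -0.34 in JNKKO.

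BMP targets had the highest list median, 1.55, with 10 of 13 above 0 and BMPR1A below. Below 0 the count was 2 on log2(TPM + 1), without the low-count filter, with only the 12 libraries and without the library whose tags disagree. The shape was a changed starting level in 6 of the 11 called, beside 34.1% of all called genes. ID3, an inhibitor of differentiation factors, stood at 122, 129 and 133 CPM in WT control against 35.9, 34.1 and 36.1 with dimerizer, and 53.98, 58.1 and 59.7 CPM in JNKKO control against 39.98, 36.3 and 39.2 with dimerizer. WT control was more than 2-fold above JNKKO control and the dimerizer groups lay close together, with an interaction of 1.28 ± 0.07 (edgeR adjusted p = 1.3e-14). BMP2, a ligand of the pathway, was at 32.7, 29.8 and 33.5 CPM in WT control against 9.06, 8.90 and 9.05 with dimerizer, and 10.5, 11.7 and 11.3 CPM in JNKKO control against 9.52, 10.8 and 9.65 with dimerizer, and its JNKKO groups overlapped while WT fell by 1.83 on the log2 scale. SMAD9, a transducer of BMP signals, had effects of -1.68 in WT and 0.06 in JNKKO. HEY1 and BAMBI rose in JNKKO, by 2.19 ± 0.13 and 1.09 ± 0.13.

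Genes that respond to TGF-β or activin were above 0 in 11 of 19 and below in 5, with a median of 0.66, or 0.41 on log2(TPM + 1). FSTL3, which binds and blocks activin, was at 299, 289 and 330.4 CPM in WT control against 146, 139.7 and 141 with dimerizer, and 136, 155 and 158 CPM in JNKKO control against 239.8, 208 and 236 with dimerizer. It fell in WT and rose in JNKKO without overlap within a genotype, with an interaction of 1.71 ± 0.09. TGFBI, a secreted matrix protein, had effects of -1.10 and 0.33. FST, an activin antagonist, was below 0 at -1.97 ± 0.63, and COL1A1 above at 0.99 ± 0.08.

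Mesenchymal markers were above 0 in 9 of 17 and below in 3, with a median of 0.42. Below 0 the count was 1 on log2(TPM + 1) and without WT control replicate 3. SNAI2, a repressor of epithelial genes, stood at 165, 162 and 165 CPM in WT control against 79.7, 81.1 and 79.5 with dimerizer, and 84.3, 80.9 and 80.6 CPM in JNKKO control against 109, 118 and 111 with dimerizer. It fell in WT (-1.03 ± 0.05) and rose in JNKKO (0.46 ± 0.05), with no overlap within either genotype. FN1, fibronectin, fell in WT and rose in JNKKO with an interaction of 3.05 ± 0.65, while SPARC, a matrix glycoprotein, rose in WT and fell in JNKKO (1.07 and -1.16). VIM rose in both genotypes, with an interaction of 0.19 ± 0.07. ZEB1 had effects of 0.40 and 0.36 and its interaction was not called.

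Epithelial junction and polarity genes were below 0 in 15 of 24, none was above, and the median was -0.84. CDH1, the adherens junction cadherin, was at 57.05, 56.9 and 64.4 CPM in WT control against 104, 107 and 107 with dimerizer, and 85.4, 78.5 and 80.5 CPM in JNKKO control against 79.4, 84.97 and 80.04 with dimerizer. It rose in WT, and the JNKKO groups overlapped, with an interaction of -0.83 ± 0.09 (edgeR adjusted p = 1.92e-07). ST14, a membrane protease of epithelia, was at 63.999, 73.8 and 79.7 CPM in WT control against 134, 143 and 138 with dimerizer, and 138, 142 and 138 CPM in JNKKO control against 114, 118 and 118 with dimerizer, and rose in WT and fell in JNKKO with an interaction of -1.19 ± 0.09. EPCAM fell in JNKKO from 15.7, 15.2 and 12.9 to 7.004, 6.93 and 7.43 CPM. The count above 0 was 1 in the fits without the low-count filter, with only the 12 libraries and without the library whose tags disagree.

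Desmosome genes were called in all 11 tested, 9 below 0 and 2 above (DSG2 and PKP3), with a median of -0.67. DSC2, a desmocollin, had effects of 0.50 in WT and -0.31 in JNKKO, and PKP2, a plakophilin, had 0.74 and 0.05, the second not called. On both TPM scales 1 member was above 0.

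Laminin-332 and its receptors were above 0 in 10 of 17 and below in 5, with a median of 0.36, or 0.21 and 0.20 on log2(TPM + 0.1) and log2(TPM + 1). LAMA3, the α3 chain of laminin-332, stood at 564, 530.4 and 595 CPM in WT control against 856, 828 and 839.5 with dimerizer, and 693, 669 and 723 CPM in JNKKO control against 2378, 2507 and 2536 with dimerizer. JNKKO dimerizer was nearly 3-fold above the next group, with a rise of 0.58 ± 0.05 in WT and 1.83 ± 0.05 in JNKKO. LAMB3, the β3 chain, had an interaction of 1.32 ± 0.14. PLEC and ITGB1, a linker and a receptor of the matrix, fell in WT (-0.65 and -0.13) and rose in JNKKO (0.31 and 0.64).

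Squamous and cornified envelope genes had a median of -1.29, which ran from -1.88 to -0.51 over the alternatives, the latter on log2(TPM + 1), with 11 of 22 below 0 and 4 above (KRT10, KRT6A, FLG and LCE3D). In JNKKO 16 of 22 fell and 2 rose, where 17.9% of genes tested fell and 22.5% rose. KRT6A, a keratin of activated keratinocytes, was at 3304, 3360.2 and 3563 CPM in WT control against 2543, 2373 and 2439 with dimerizer, and 2535, 2588 and 2684 CPM in JNKKO control against 4014, 3893 and 4106 with dimerizer, and fell in WT and rose in JNKKO with an interaction of 1.10 ± 0.05. FLG, filaggrin, fell in both genotypes (-2.38 in WT and -1.43 in JNKKO). Basal and myoepithelial markers were above 0 in 6 of 15 and below in 4, with a median of 0.13, or 0.04 and 0.05 on log2(TPM + 0.1) and log2(TPM + 1). KRT15 was the member of largest size, at 894, 810.2 and 874 CPM in WT control against 5247, 5333 and 5638 with dimerizer, and 5078, 5005 and 4961 CPM in JNKKO control against 3525, 3415 and 3458 with dimerizer. WT control stood apart as the low group, and the interaction was -3.19 ± 0.16 (edgeR adjusted p = 4.85e-09). TP63, the basal lineage factor, had effects of 0.45 and -0.18, and MME of -2.16 and -0.70. Luminal markers were above 0 in 2 of 10 and below in 4, with a median of -0.12, which was -0.28 on log2(TPM + 0.1) and -0.08 without JNKKO dimerizer replicate 2. KRT8 had effects of -0.44 and 0.30, KRT7 of 0.16 and 0.62, and MUC1 of -0.22 and -0.46.

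Proteases and the plasminogen system were above 0 in 9 of 23 and below in 3, with a median of 0.36. On log2(TPM + 1) 1 was below 0 and the median was 0.12, and on log2(TPM + 0.1) it was 0.22. TIMP3, an inhibitor of metalloproteases, stood at 340.5, 343 and 356 CPM in WT control against 122, 106 and 116 with dimerizer, and 136, 139 and 146 CPM in JNKKO control against 188, 199.9 and 189 with dimerizer. It fell in WT and rose in JNKKO without overlap within a genotype, with an interaction of 2.05 ± 0.06 (edgeR adjusted p = 1.92e-20). TIMP2 had effects of -1.04 and 0.26. MMP7, matrilysin, fell in WT from 17.7, 16.8 and 15.4 to 0.930, 0.904 and 1.15 CPM and in JNKKO from 4.89, 4.66 and 3.83 to 1.58, 1.18 and 1.51 CPM. YAP and TAZ targets were above 0 in 8 of 16 and below in 4, with a median of 0.54. On log2(TPM + 1) the median was 0.17. Below 0 the count was 2 without JNKKO control replicate 3 or WT control replicate 2. CYR61, a secreted matrix protein, was at 45.1, 47.9 and 51.8 CPM in WT control against 9.86, 10.3 and 10.6 with dimerizer, and 16.9, 20.4 and 18.8 CPM in JNKKO control against 13.2, 12.7 and 11.4 with dimerizer. WT control was the high group, and the fall was -2.23 ± 0.08 in WT and -0.59 ± 0.09 in JNKKO. GADD45A, a stress response gene, had effects of -0.37 and 1.19, and AMOTL2 of -1.70 and -0.63.

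Among immune signals, cytokine and NF-kB target genes were above 0 in 4 of 21 and below in 6, with a median of -0.17. It was -0.36 on log2(TPM + 0.1) and without JNKKO dimerizer replicate 2, and -0.08, -0.09 and -0.10 without JNKKO control replicate 3, WT control replicate 1 and WT control replicate 3. LIF, a cytokine of the interleukin 6 family, was at 3.46, 3.49 and 3.39 CPM in WT control against 7.44, 8.02 and 8.57 with dimerizer, and 8.17, 8.69 and 8.24 CPM in JNKKO control against 4.61, 6.26 and 4.05 with dimerizer. It rose in WT and fell in JNKKO, and BIRC3, an NF-kB target, did likewise (0.72 and -0.66). IL1B was gained, with an interaction of 2.17 ± 0.46. Interferon response genes were below 0 in 10 of 23 and above in 3, with a median of -0.41. OAS3, an antiviral synthetase, stood at 37.1, 43.8 and 41.4 CPM in WT control against 80.8, 88.01 and 84.8 with dimerizer, and 89.9, 86.7 and 89.9 CPM in JNKKO control against 63.98, 66.2 and 64.4 with dimerizer. WT control was the low group, and the interaction was -1.51 ± 0.07 (edgeR adjusted p = 7.45e-16). OAS1 had an interaction of -1.93 ± 0.10.

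Cholesterol synthesis genes were below 0 in 13 of 23 and MSMO1 above, with a median of -0.23 (-0.39 and -0.37 on log2(TPM + 0.1) and log2(TPM + 1)). With dimerizer, 19 of 23 rose in WT and 14 in JNKKO, beside 30.3% and 22.5% of genes tested. Above 0 the count was 0 on both TPM scales and 2 without JNKKO dimerizer replicate 2. STARD4, a sterol carrier, rose from 30.7, 28.98 and 29.95 to 79.6, 77.4 and 77.5 CPM in WT and from 37.9, 37.6 and 33.5 to 59.4, 59.5 and 59.7 CPM in JNKKO. SREBF2, the master factor of the pathway, had effects of 0.86 and 0.38.

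The unfolded protein response and ATF4 targets were above 0 in 12 of 25 and none was below, with a median of 0.36. Of the 12, 7 were gained, beside 14.3% of all called genes. HSPA5, the main chaperone of the endoplasmic reticulum, stood at 354, 360.0 and 367 CPM in WT control against 353, 337 and 342 with dimerizer, and 379.9, 372 and 362 CPM in JNKKO control against 516, 595 and 535 with dimerizer. Its JNKKO dimerizer libraries were the highest of the 12 and the other 3 groups lay close together, with an interaction of 0.63 ± 0.06 (edgeR adjusted p = 2.5e-09). XBP1 and PCK2 had JNKKO effects of 0.98 ± 0.11 and 1.72 ± 0.14. Below 0 the count was 3 on both TPM scales and 1 without JNKKO dimerizer replicate 2, and the median was 0.23 and 0.22 on log2(TPM + 0.1) and log2(TPM + 1). Hypoxia and glycolysis genes were above 0 in 15 of 25 and PDK1 below, with a median of 0.35. On both TPM scales 8 were above and 2 below and the median was 0.19, and none was below without JNKKO control replicate 1, JNKKO dimerizer replicate 1 or WT control replicate 3. PFKFB3, a regulator of glycolysis, rose in JNKKO from 43.6, 41.3 and 41.6 to 68.2, 57.5 and 62.02 CPM and had a WT effect of -0.06. ENO1 and HK1 fell in WT (-0.36 and -0.38).

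Of p53 and senescence genes 4 of 14 were above 0 and 6 below, with a median of -0.06. It was -0.21 and -0.20 on log2(TPM + 0.1) and log2(TPM + 1), -0.11, -0.10 and -0.09 without JNKKO control replicate 1, WT control replicate 1 and JNKKO dimerizer replicate 2, and -0.04 without WT control replicate 2. CDKN1A, the inhibitor p21, was at 398, 385 and 420.0 CPM in WT control against 308, 297 and 305 with dimerizer, and 212, 216 and 223 CPM in JNKKO control against 308, 331 and 305 with dimerizer. It fell in WT and rose in JNKKO, from a JNKKO control group that was the lowest, with an interaction of 0.94 ± 0.05 (edgeR adjusted p = 3.9e-14). SERPINB5 rose in both genotypes (0.31 and 1.17), and BTG2 had effects of 0.43 and -0.33. In the BCL2 family 4 of 16 were above 0 and 5 below, with a median of -0.07, which was -0.20 and -0.13 on log2(TPM + 0.1) and log2(TPM + 1) and -0.05 without JNKKO dimerizer replicate 2. BCL2L1, a survival member, had effects of -0.73 in WT and 0.52 in JNKKO. BBC3, a death-promoting member, had 0.64 and -0.31.

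Lysosome genes were above 0 in 10 of 21 and below in 4, with a median of 0.22, which was 0.07 and 0.08 on log2(TPM + 0.1) and log2(TPM + 1) and 0.15 without WT control replicate 3. CTSB, cathepsin B, stood at 470.4, 454 and 481 CPM in WT control against 369, 338 and 353 with dimerizer, and 340.2, 349 and 365 CPM in JNKKO control against 698, 631 and 709 with dimerizer. It fell in WT and rose in JNKKO without overlap within a genotype, with an interaction of 1.36 ± 0.06, while CTSD had effects of 0.19 and -0.25 and NPC1 of -0.15 and 0.40.

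The Notch list had 3 of 14 above 0 and 3 below, with a median of -0.23. The median was -0.13 without WT control replicate 1 and -0.14 without JNKKO dimerizer replicate 2. On both TPM scales 1 was above and 5 below. NOTCH1 fell in JNKKO from 578, 551 and 575 to 322, 326 and 315 CPM and was at 459, 471 and 485 and 452, 449 and 451 CPM in WT. NOTCH3 had an interaction of -0.68 ± 0.15. Wnt antagonists and targets were above 0 in 2 of 16 and below in 6, with a median of -0.17, which was -0.07 on log2(TPM + 1) and without WT dimerizer replicate 2. SFRP1, a secreted Wnt inhibitor, was at 265, 274 and 270.3 CPM in WT control against 464, 500.4 and 469 with dimerizer, and 510.1, 493 and 483 CPM in JNKKO control against 372, 381 and 374 with dimerizer, and rose in WT and fell in JNKKO with an interaction of -1.22 ± 0.07. LGR4, a receptor for R-spondins, had effects of 0.76 and -0.33.

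**Figure D5:**
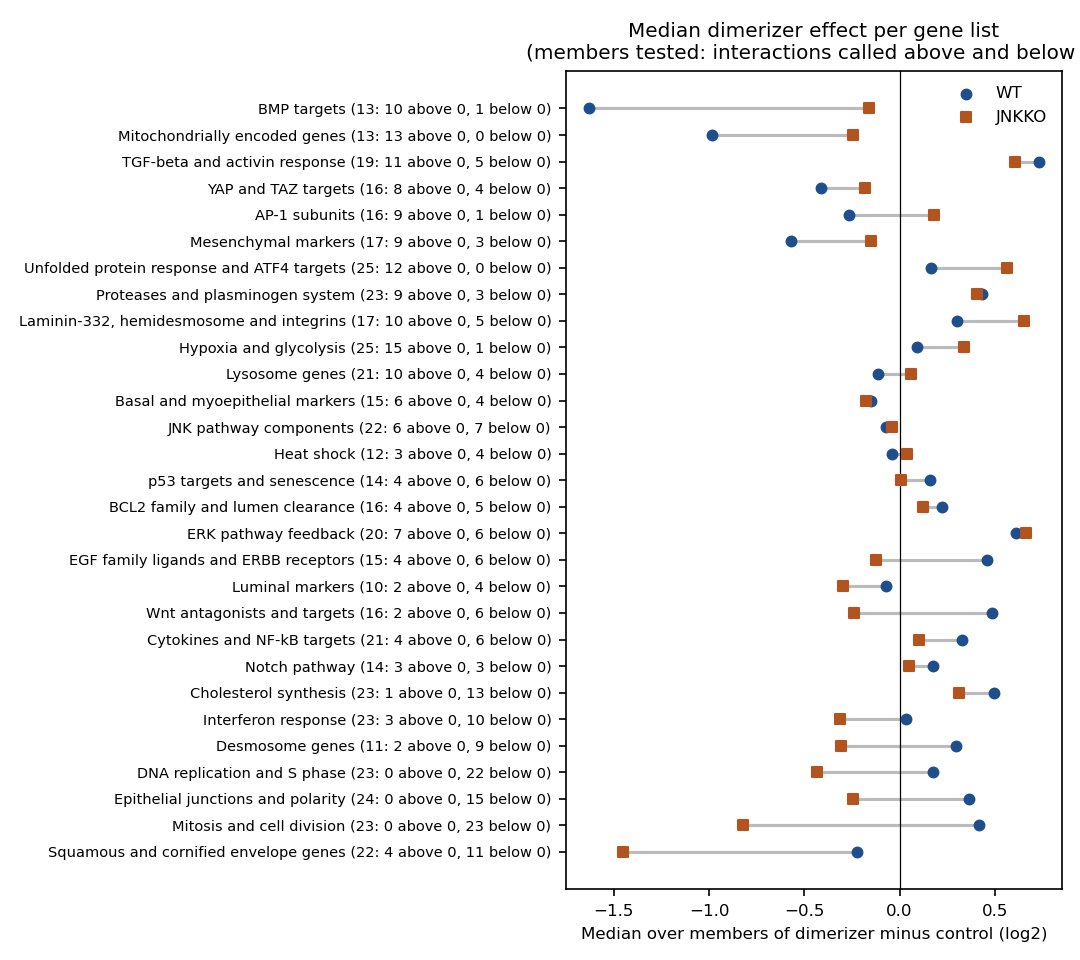
Median log2 difference of dimerizer minus control over the tested members of 29 gene lists in WT (circles) and JNKKO (squares), with the number tested and the interactions called above and below 0. The lists are ordered by their median interaction. Mitosis genes have medians of 0.42 in WT and -0.82 in JNKKO.

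All 13 mitochondrially encoded genes were above 0, with a median of 0.71. MT-ND4, a subunit of complex I, had effects of -1.36 ± 0.04 in WT and -0.31 ± 0.03 in JNKKO, MT-ND2 of -1.39 and -0.31, and MT-ND6 of -1.17 and -0.20. Heat shock genes had 3 of 12 above 0 and 4 below, and a median of -0.01 that lay between -0.15, on log2(TPM + 0.1), and 0.01, without JNKKO control replicate 3 or WT control replicate 1. HSPA8 rose in both genotypes, by 1.06 and 0.46, while HSPA1A and HSPA1B fell, by less in JNKKO (-0.12 and -0.14) than in WT (-0.55 and -0.55).

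Markers of other cell types were counted beside these lists. Fibroblast markers summed to 342 to 362 CPM in WT control, 142 to 151 in WT dimerizer, 192 to 205 in JNKKO control and 144 to 170 CPM in JNKKO dimerizer, of which FBLN1 and PDPN made up most. Of 7 tested, 3 were above 0 and none below, with a median of 0.27. It was 0.50 and 0.17 on log2(TPM + 0.1) and log2(TPM + 1), 0.42 with only the 12 libraries and 0.41 without WT dimerizer replicate 3. Of the other members, LUM, PDGFRA and COL3A1 held 11, 3 and 3 counts over the 12 libraries, while DCN held 8539. Mean DCN was 32.9 CPM in WT control, 18.4 in WT dimerizer, 26.05 in JNKKO control and 17.7 CPM in JNKKO dimerizer. Mean COL6A3 was 0.703 CPM in JNKKO control and 4.45 CPM in JNKKO dimerizer, against 0.459 and 0.628 CPM in WT control and WT dimerizer. Immune and endothelial markers summed to 62.7 to 65.9 CPM in WT control, 52.8 to 55.3 in WT dimerizer, 57.7 to 58.8 in JNKKO control and 101 to 122 CPM in JNKKO dimerizer. Of 9 tested, 4 were above 0 and 3 below, and the median of -0.40 was 0.59 without WT dimerizer replicate 1, -0.16 without JNKKO control replicate 3 and -0.18 without JNKKO dimerizer replicate 1. On log2(TPM + 0.1) it was -0.26 and on log2(TPM + 1) -0.05. CD68 rose in JNKKO from 6.87, 6.14 and 6.90 to 47.3, 42.1 and 47.5 CPM, while CDH5, LYZ and CD3E held 1, 3 and 7 counts over the 12 libraries. The part of such cells in the results above was not tested.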

How the data were processed

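The authors deposited RSEM expected counts and TPM per gene, both per the file headers. Reads were processed with cutadapt and RSEM and the build was hg38, all per the submitters' processing notes. Aligner, annotation and strand use: not given in the sources used here. Overlapping, antisense and near-identical genes are therefore uncertain. A median of 9.35% of the deposited expected counts per library were not whole, and all were rounded. Altered gene names (127) were restored, and positions come from GENCODE 29 (42125 of 42141 genes matched). Samples were grouped by title. The genotype tag of the third WT library with dimerizer and TGF-β1 contradicts its title, and it enters only the low-count filter, the scaling and the spread. Library totals ran from 24243537 to 34499651.

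All 18 libraries were fitted with edgeR 4.0.16 in R 4.3.3 (quasi-likelihood F test, robust, TMM factors 0.962 to 1.04, default low-count filter, 1 mean per group), with Benjamini-Hochberg adjustment over 16911 genes and a threshold of 0.05. A standard error is the absolute log2 value over the root of F. The common biological coefficient of variation was 4.47%. On simulated data of 16809 genes the fit recovered 82 of 100 genes with interactions of 0.5 and 97 of 100 of size 1 (log2). It called 6 of 16609 unchanged genes. In the real data 42.6% of genes tested were called, a far larger share than was changed in the simulation. The simulated rates were not split by expression level or by the group that held the change. They therefore do not give the power or the false-call rate of the calls reported here. Replicate pairs differed beyond sampling noise (chi-square per gene 2.24 to 6.24), so each library was counted once. DESeq2 1.42.0, limma 3.58.1 on deposited log2(TPM + 1) and log2(TPM + 0.1), and the other alternatives are given in the closing section.

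Named genes were, per shape and sign, the 4 largest interactions among genes reaching 5 CPM in a group, with replicates within 2-fold, a proper symbol and no pseudogene, plus up to 3 members of smallest adjusted p from each of 31 lists, and CDH1, EGFR, ERBB2, INHBA, JUN, MAPK10, MAPK8, MAPK9, MKI67 and NGFR. Altogether 131 genes met the rule, of which some are not reported here. The lists are those described by name above. Further list members and promoter matches were singled out after their values were seen. The shapes, lists and rule were chosen with earlier results of these data known.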

Additional observations from a re-analysis of the deposited data

Results flagged for a closer look

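The dimerizer effect differed between the genotypes, by the edgeR test of the difference itself, in 7200 genes. The genes that the naming rule picked for each shape, all reaching 5 CPM in a group, are given with their log2 values.

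Of opposite genes, AOX1 was at 5.76, SPX at 3.59, VSTM2L at 3.48 and ALDH3B1 at 3.07, each falling in WT and rising in JNKKO. SPARCL1 at -4.53, FGF1 at -4.47, CXCL14 at -3.77 and BBOX1 at -3.73 did the reverse.

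Of genes with a changed starting level, SAMD11 was at 4.68, DKK1 at 3.38, CFAP61 at 2.91 and SMAD6 at 2.85, all higher in WT control than in JNKKO control. COL16A1 at -2.55, SERPINB3 at -2.55, GPR37 at -2.04 and CASP14 at -2.04 were lower in WT control.

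Of lost genes, CSAR2 was at 3.52, MSLN at 2.17 and PTPRN2 at 2.08, which fell in WT. GPNMB at -3.44, CLDN1 at -3.02, APOE at -2.89 and BLNK at -2.32 rose in WT.

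Of gained genes, ITPKA was at 3.98, C10orf10 at 3.92, PADI4 at 3.80 and INSC at 3.75, which rose in JNKKO. KRT1 at -2.08, ADGRF1 at -1.87, C1R at -1.64 and NUP210 at -1.61 fell in JNKKO.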

How the results depend on the processing

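On limma with log2(TPM + 1), 2078 interactions were called above 0, 224 and 435 were at least 2-fold above and below, and 243 opposite above, 232 lost above, 1655 lost below and 327 gained above. With log2(TPM + 0.1) these were 2030 above 0, 253 opposite above, 831 changed starting level above, 235 lost above, 1621 lost below and 325 gained above. At an adjusted p under 0.01, 364 and 518 genes were opposite above and below 0, and 263 and 173 moved in the same direction. With the starting level taken after lost and gained, 303 and 273 genes had it and 1462 and 1569 were lost, by construction of the order. The cause of the TPM differences was not tested.

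DESeq2 called 6617 of the 7200 genes (91.9%), and each fit without 1 of the 12 libraries called 89.4% to 92.6% of them, none with the other sign. On the TPM scales 74.3% (TPM + 1) and 74.8% (TPM + 0.1) were called, and 88 and 86 of the 7200 had the other sign. Leaving out 1 library gave 3325 to 3555 calls above 0 and 3296 to 3591 below. Same-numbered replicates had correlations of -0.06 to 0.05 between their deviations from the group means in 18 pairs, so no broad shift shared by number was seen. This check would miss a shift in few genes and does not show how the samples were handled. With the replicate number as a block, 3592 were called above 0 and 3591 below, and 7082 of the 7200 calls (98.4%) were kept.

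Over all alternatives, 2740 of the values of named genes kept their side of the threshold and 8 lost the call (CASP14 in 6, EGFR in 2). No value called in the main or the alternative fit changed sign. The sign of values called in neither was not compared. The error of CASP14 was wide, and its replicates were spread within groups.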

Other observations

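A pair of genes had unusual values, and that of PAPPA2 is uncertain, with an error of 2.15 on its interaction. TEK, an angiopoietin receptor of endothelium, stood at 0.190, 0.161 and 0.504 CPM in WT control against 1.13, 0.817 and 0.871 with dimerizer, and 1.06, 0.777 and 1.30 CPM in JNKKO control against 19.5, 16.7 and 20.9 with dimerizer, and its interaction was 2.48 ± 0.47 (edgeR adjusted p = 0.000102). PAPPA2, a protease of IGF-binding proteins, had the largest interaction among the protease list, 5.35 ± 2.15, but was not called (edgeR adjusted p = 0.0592), with WT effect 3.60 ± 0.84 and JNKKO effect 8.95 ± 0.78.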
